A study of Mus musculus with 2 samples.

Results

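Double-negative (DN) T cells carry an αβ T cell receptor but neither the CD4 nor the CD8 coreceptor. They were picked here from single-cell RNA sequencing of MRL-*lpr* kidneys by their transcripts alone. A cell was called DN if it held at least 2 unique molecular identifiers (UMIs, each standing for 1 captured transcript) of the CD3 genes *Cd3d*, *Cd3e* and *Cd3g* and at least 1 of *Trac*, the constant region of the receptor α chain. It also had to hold none of *Cd4*, *Cd8a*, *Cd8b1*, *Foxp3*, *Trdc* or *Ncr1* and UMIs of fewer than 2 of the 4 cycling genes *Mki67*, *Top2a*, *Birc5* and *Cdk1*. The rule found 1475 DN T cells among 19671 cells past the filters (at least 200 genes, at least 2000 UMIs and at most 20% mitochondrial UMIs), 135 in the young library and 1340 in the old library. The CD3, *Trac* and coreceptor levels of these cells were therefore set by the choice and are given only as description.

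DN T cells are rare in most mice and accumulate in lymphoid organs of mice with the *lpr* mutation of *Fas*, a death receptor through which activated lymphocytes are removed. In these mice, and in patients with lupus, they have long been studied as cells that may derive from coreceptor-positive T cells and that can enter inflamed kidneys. *Eomes*, a T-box factor of effector and memory lymphocytes, *Myb*, a factor of progenitor cells and of memory-like T cells, and *Tcf7*, which encodes TCF-1 of naive and memory-precursor T cells, were given as markers of these cells beside *Cd3e* and *Trac*.

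Each library was made from kidneys pooled from MRL-*lpr* mice labelled either old or young, and all mice, young ones included, carried the *lpr* genotype. Leukocytes were enriched on a density gradient, cells were enriched further with a magnetic kit for innate lymphoid cells, and live cells were sorted for 10x Chromium 3′ libraries. There was 1 library per age, so no difference between the ages or between cell classes has a replicate check and no p-value is given. All intervals are 95% intervals (exact Poisson for levels, Clopper-Pearson for shares and exact binomial for ratios) and cover counting error only, and shares describe the enriched suspension rather than the kidney. Which T cells the kit removes is not given in the sources used here, and whether it removed CD4, CD8 and DN T cells unequally, and so moved shares among T cells, was not tested.

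For comparison, αβ T cells with *Cd4* but no *Cd8a* or *Cd8b1* UMI were called CD4 T cells (104 young, 1018 old), and those with *Cd8a* or *Cd8b1* but no *Cd4* were called CD8 T cells (152 young, 1057 old). Levels are given as CPM, which is how many of every 1000000 UMIs from all cells of a class came from the gene. Proximal tubule (PT) cells, which should lack T cell transcripts, served as the measure of free RNA. The libraries held 156787812 (young) and 126334256 (old) UMIs in 15076 and 12622 barcodes, of which 41 were shared, and 1 of these was an old DN T cell. The median DN T cell held 4708 UMIs (range 2192 to 62707) in the young library and 4336.5 (2000 to 78225) in the old library. Median depths were 5181 and 5399 UMIs in CD4 T cells, 5512.5 and 6182 in CD8 T cells and 15187.5 and 15686 in PT cells. Both libraries held cells with Y-linked transcripts and cells with *Xist*, so each pool appeared to hold cells of both sexes. The paper describes its young and old MRL-*lpr* groups as female, and the sample labels give no sex. Of the old DN T cells, 340 had Y-linked UMIs without *Xist* and 714 had *Xist* without Y-linked UMIs. In the young library these numbers were 65 and 23.

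The absence of a coreceptor UMI does not by itself show that a cell lacked the coreceptor, because shallow cells miss transcripts. When coreceptor-positive cells of at least 8000 UMIs were thinned to 4000 UMIs, 38.1% of old CD4 T cells and 34 of 310 old CD8 T cells lost every coreceptor UMI. Of young cells, 60.9% of CD4 and 22.9% of CD8 T cells lost them. Exactly 1 coreceptor UMI was held by 34.1% of old and 56.7% of young CD4 T cells, but by 9.84% of old and 11.2% of young CD8 T cells. How many CD4 or CD8 T cells without a captured coreceptor transcript the DN gate holds is therefore unknown.

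Just inside the limits of the rule, 42 old and 2 young DN T cells had exactly 2 CD3 UMIs, 228 and 35 had exactly 1 *Trac* UMI, and 27 and 1 had 2000 to under 2200 UMIs. Just outside, 451 old and 76 young cells missed the rule only through exactly 1 coreceptor UMI, 62 and 10 through having 1 CD3 UMI, and 25 and 1 through 1800 to under 2000 UMIs. A further 21 old and 3 young coreceptor-negative cells were left out as cycling.

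DN T cells made up 38.4% of the αβ T cells compared in the old library (1340 of 3492, 36.8% to 40.0%) and 34.1% in the young library (135 of 396, 29.4% to 39.0%), and these intervals overlap. Of all cells past the filters they made up 14.2% in the old and 1.32% in the young library. The share among αβ T cells depended on the depth of the cell. In the old library it was 63.6% among cells of 2000 to under 3000 UMIs and 19.6% among cells of 6000 to under 8000 UMIs. In the young library the values in the same bins were 53.8% and 26.3%. Within the old library the share was 48.1% (45.5% to 50.7%) among cells with *Xist* only and 29.3% (26.7% to 32.0%) among cells with Y-linked UMIs only, intervals that do not overlap. In the young library these shares were 39.7% (27.0% to 53.4%) and 30.1% (24.1% to 36.7%).

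**Figure D1:**
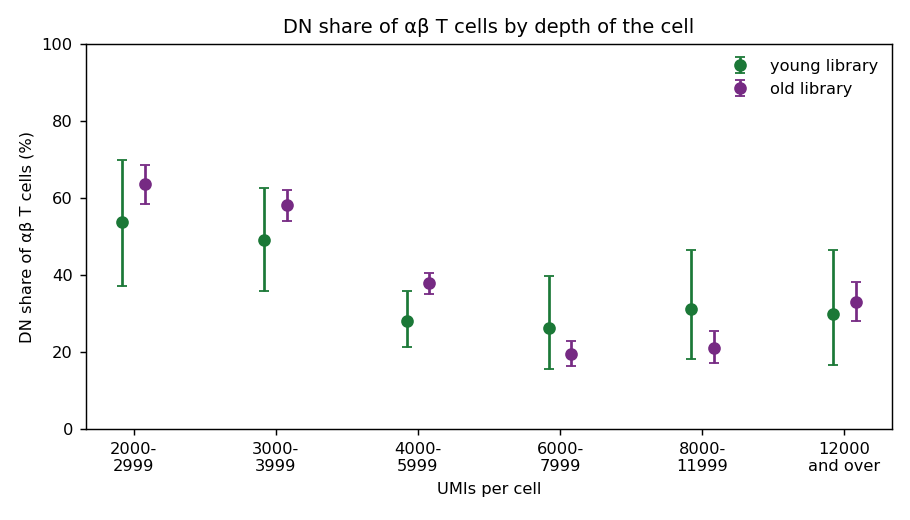
Share of DN T cells among αβ T cells (y axis, %) in 6 bins of UMIs per cell (x axis) for the young and the old library, with exact binomial 95% intervals. The share was highest in the shallowest bin of both libraries, 63.6% in the old and 53.8% in the young library.

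*Eomes*, *Myb* and *Tcf7* all stood above both coreceptor-positive classes in the old library but not in the young one. *Eomes* (chr9:118478212-118486132 in mm10) stood at 428 CPM (414 to 442) in old DN T cells, against 112 (104 to 120) in CD4 T cells, 183 (174 to 192) in CD8 T cells and 133 in natural killer (NK) cells. With every cell thinned to 2000 UMIs, 54.0% of old DN T cells held an *Eomes* UMI, against 14.3% of CD4, 30.0% of CD8 and 0.235% of PT cells. *Myb* (chr10:21124935-21160984) stood further apart, at 339 CPM in DN, 31.3 in CD4, 55.4 in CD8 and 9.04 in NK cells. *Myb* was found in 44.2% of DN, 3.73% of CD4, 6.81% of CD8 and 0.118% of PT cells at matched depth. *Tcf7* (chr11:52252371-52283014) stood at 337, 164 and 116 CPM in DN, CD4 and CD8 T cells. In log2 terms the DN level was above CD4 and CD8 T cells by 1.94 and 1.23 for *Eomes*, 3.44 and 2.62 for *Myb*, and 1.04 and 1.54 for *Tcf7*.

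In young DN T cells *Eomes* stood at 17.2 CPM (9.85 to 28.0, 16 UMIs in all), against 3.83 in CD4 and 28.9 in CD8 T cells. *Myb* stood at 12.9, 16.6 and 10.2 CPM in DN, CD4 and CD8 T cells, with overlapping intervals. *Tcf7* was lower in young DN T cells (163 CPM, 138 to 191) than in CD4 T cells (270, 235 to 309) and close to CD8 T cells (160, 138 to 184). At matched depth 4.44% of young DN T cells held *Eomes* or *Myb*, against 68.0% (65.4% to 70.5%) of old DN T cells. Old and young DN T cells thus passed the same gate but differed in *Eomes* and *Myb*. *Tcf7* was found in both, but in the young library without an excess over CD4 and CD8 T cells. When thinned to 4000 UMIs, 60.9% of young and 38.1% of old CD4 T cells lost every coreceptor UMI. Whether the gate held unequal parts of such cells in the young and old library was not tested. *Cd3e*, used by the rule, was at 526 CPM in old DN, 724 in CD4 and 831 in CD8 T cells, and *Trac* at 661, 784 and 783 CPM.

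The *Eomes* level of old DN T cells lay between 519 and 579 CPM in the 5 depth bins below 12000 UMIs and was 163 CPM in the cells of 12000 UMIs and over. *Myb* lay between 405 and 473 CPM in the same 5 bins, with 120 CPM above them. Coreceptor-positive T cells of the old library had 112 to 237 CPM of *Eomes* across the 6 bins. The deep bin held 113 DN T cells with 31.8% of the UMIs of the class. In it 4.43% of UMIs came from tubule genes, against 0.314% below 12000 UMIs, and 31.9% of cells were called doublets, against 2.44%. Among old coreceptor-positive cells, those with exactly 1 coreceptor UMI had 214 CPM of *Eomes* and 124 of *Myb*, those with 2 had 143 and 47.9, and those with 3 or more had 133 and 23.5. Cells at the edge of the gate thus had levels between those of DN T cells and those of clear CD4 or CD8 T cells.

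**Figure D2:**
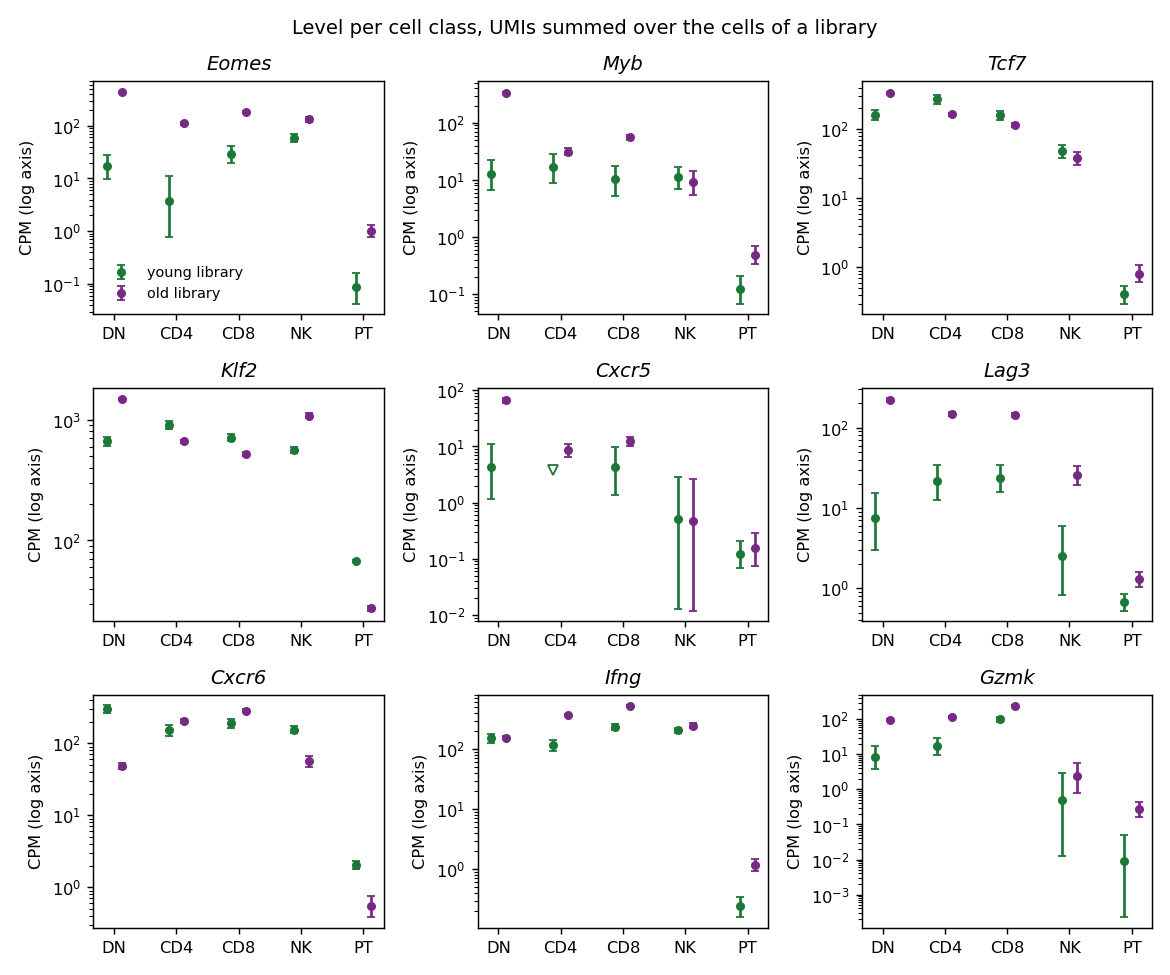
Level of 9 genes (y axes, CPM on a log axis) in DN, CD4 and CD8 T cells, NK cells and PT cells of the young and old library, with exact Poisson 95% intervals; the open triangle marks an upper limit where no UMI was seen. *Eomes*, *Myb*, *Klf2* and *Cxcr5* were highest in old DN T cells, and *Cxcr6* was at 48.6 CPM in old against 299.5 CPM in young DN T cells.

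Across the genome, 10241 genes had enough UMIs (at least 100 over the classes compared) to be set against both coreceptor-positive classes in the old library. Of these, 324 (3.16%) were at least 2-fold higher in DN than in both CD4 and CD8 T cells, and 193 (1.88%) were at least 2-fold lower than in both. In the young library 16 of 4207 genes (0.38%) were higher and 7 (0.166%) were lower. On the 4205 genes measured in both libraries the counts were 53 higher and 60 lower in the old and 15 higher and 7 lower in the young library, and the young classes held fewer cells, which makes their ratios less precise. With every cell at 2000 UMIs, 450 genes were higher and 259 lower in the old library, and 279 and 150 were called at both depths. In the young library 47 were then higher and 63 lower, and 14 of the 16 higher genes but only 1 of the 7 lower genes, *Fam169b*, were called at both depths. The median ratio over all genes tested was 0.11 (log2) against CD4 and 0.18 against CD8 T cells in the old library, and 0.02 and 0.05 in the young one.

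Genes that were 2-fold apart in the same direction in both libraries were few. *Hbb-bs* was the 1 gene of 4205 called higher (0.0238%), and the chemokine gene *Ccl3* was the 1 called lower (0.0238%). The *Ccl3* call rested on 19 UMIs in young DN T cells, of which 94.7% lay in 5 cells, and with every cell at 2000 UMIs its young ratio to CD4 T cells turned from -1.08 to 0.30 (log2), which ends the call. *Hbb-bs* encodes a hemoglobin chain, and 99.0% of its UMIs in old DN T cells and 98.5% in young DN T cells lay in a single cell. *Hba-a1*, the other hemoglobin gene among the leading genes, had 97.6% and 95.6% of its UMIs in 1 cell. Below the 2-fold limit, the next genes in the same direction in all 4 ratios were *Zbtb38*, *Arhgap4*, *Fgf1*, *Plekha2*, *Phlda1* and *Zfpm1*. Each was at least 0.59 (log2) higher in DN T cells. In young DN T cells, 5 cells held 78.6% of the *Fgf1* and 55.8% of the *Phlda1* UMIs. For the other genes just named this share was 20.4% to 40%. *Fgf1* was at 223 CPM in old PT cells against 63.7 in old DN T cells. *Zfpm1*, which encodes the GATA cofactor FOG-1, was at 152 CPM in old DN, 58.2 in CD4 and 39.3 in CD8 T cells. Among genes that kept their direction in all 4 ratios after thinning, which leaves out *Ccl3*, those lower were led by *Tdrp*, *Atp2b4*, *Hspa1b*, *Trps1*, *Nab1*, *Fam78a*, *Dnajc15* and *Abracl*. The remaining genes of the same rule were *Slc48a1*, *Itpr2*, *Rnpepl1*, *Rnf145*, *Egln2*, *Tlk2* and *Mxd1* on the higher side and *Anxa6*, *Arid5a*, *Dtx1*, *N4bp2l1*, *Itgb1*, *Sgk1* and *Gm11361* on the lower side. *Itgb1*, the integrin β1 chain, was at 157 CPM in old DN, 619.9 in CD4 and 274 in CD8 T cells, and at 175, 305 and 222 CPM in the young library.

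**Figure D3:**
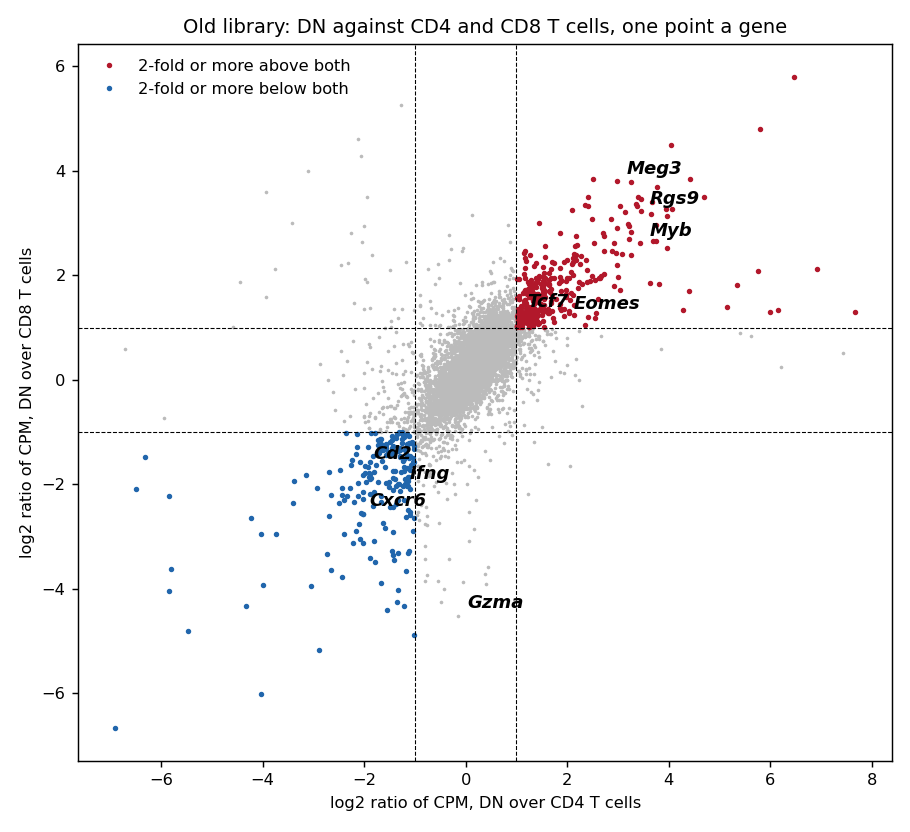
Each point is 1 of the 10241 genes of the old library, with the log2 ratio of CPM in DN over CD4 T cells on the x axis and over CD8 T cells on the y axis and dashed lines at 2-fold. The 324 genes above both classes include *Myb* and *Meg3*, and the 193 below both include *Cxcr6*, *Cd2* and *Ifng*.

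In the old library the genes with the largest excess, among those seen in at least 10% of DN T cells at matched depth, were *Cpm*, *Phactr1*, *Rgs9*, *Gucy1a1*, *Meg3*, *Dsp*, *Rps6ka5*, *Ptprk*, *Tubb2b*, *Myb*, *Ddc*, *Exph5*, *Pou2af1*, *Cxcr5* and *Epcam*. Many of these are better known outside T cells. *Dsp* encodes the desmosome protein desmoplakin and stood at 114 CPM in DN, 12.3 in CD4 and 14.5 in CD8 T cells. *Epcam*, an epithelial adhesion molecule, stood at 193, 20.1 and 36.6 CPM, with 7.61 in old PT cells. Whether free RNA of kidney cells other than PT cells added to the *Dsp* and *Epcam* levels was not tested. *Meg3*, an imprinted long non-coding RNA, stood at 157, 19.8 and 11.3 CPM, with 0.298 in PT cells. *Pou2af1* encodes a coactivator that works with Oct factors in lymphocytes and stood at 75.6, 10.2 and 13.7 CPM. For *Ptprk* (175 CPM in DN, 73.0 in PT cells) and *Ddc* (98.1 and 57.9) the PT level was itself high, and the part of free tubule RNA in their DN level was not tested. Tubule genes made up 1.62% of UMIs in old DN T cells, 1.13% in CD4 and 0.742% in CD8 T cells.

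Genes of the naive and memory-precursor state had the highest medians of the 15 gene lists in old DN T cells. Of 12 genes on that list, 6 were at least 2-fold higher in old DN T cells than in both classes and 1 was lower. Over all genes tested these shares were 3.16% and 1.88%. *Tcf7*, 1 of the 6, belongs to the given markers. The list had a median log2 ratio of 1.07 against CD4 and 1.51 against CD8 T cells. *Klf2*, a factor that drives *S1pr1*, stood at 1475 CPM in DN, 661 in CD4 and 521 in CD8 T cells. *Klf2* was found in 78.7%, 50.2% and 38.6% of these cells at matched depth and in 4.67% of PT cells. *Lef1*, the partner of TCF-1, stood at 139.7, 48.8 and 56.8 CPM, *Bach2* at 70.6, 19.4 and 18.0, and *Id3* at 161, 31.2 and 32.8. *Id3* was also at 102 CPM in PT cells.

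The other members of that list were not all called. *Ccr7*, the lymph node homing receptor, stood at 127, 59.0 and 71.6 CPM, and *S1pr1*, the egress receptor, at 169, 90.4 and 38.0. *Cd27* stood at 423, 205 and 219.9 CPM, *Slamf6* at 232, 156 and 81.1, and *Satb1* at 19.5, 36.8 and 125. *Il7r*, the receptor that keeps naive and memory T cells alive, was the member called lower, at 85.5 CPM in DN, 378 in CD4 and 175 in CD8 T cells.

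Of 22 lineage transcription factor genes tested, 7 were higher and 1 was lower, against 3.16% and 1.88% of all genes tested. The 7 were *Eomes*, *Myb*, *Tcf7*, *Lef1*, *Id3*, *Bach2* and *Klf2*, of which *Eomes*, *Myb* and *Tcf7* belong to the given markers and 5 are shared with the precursor list. The lower one was *Prdm1*, which encodes Blimp-1 of terminal effector cells, at 13.2 CPM in DN, 41.7 in CD4 and 33.5 in CD8 T cells. *Tbx21*, the other T-box factor, stood at 24.8, 29.5 and 38.7 CPM. *Ikzf2* stood at 57.4, 86.9 and 40.7 CPM, and *Zbtb16*, the factor of NKT cells, at 2.80 CPM or below in the 3 classes.

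Homing genes were called in both directions, 2 higher and 2 lower of 21, against 3.16% and 1.88% of all genes tested. *Cxcr5*, the follicle homing receptor, was called higher (65.8 CPM in DN, 8.50 in CD4 and 12.3 in CD8 T cells). *Cxcr6* and *Ccr2*, receptors for entry into and stay in inflamed tissue, were called lower. *Cxcr6* stood at 48.6, 204 and 284 CPM and *Ccr2* at 46.1, 169 and 172 CPM. *Itgae*, the residency integrin αE, stood at 4.63 CPM in DN, 4.82 in CD4 and 68.0 in CD8 T cells. *Cxcr3* stood at 58.0, 154 and 94.2 CPM. Of the 10 follicular helper genes, *Cxcr5* alone was higher than both classes and *Tox2* alone was lower, and *Pdcd1* stood at 40.2, 92.5 and 76.7 CPM.

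Cytotoxic genes stood lower in old DN than in CD8 T cells, and the granzymes stood near CD4 T cells. None of the 14 cytotoxic genes was higher than in both classes and 4 were lower, namely *Ccl5*, *Ccl4*, *Ccl3* and *Ctsw*. Of all genes tested, 3.16% were higher and 1.88% lower. Compared with CD8 T cells alone, the list had a median log2 ratio of -2.46, where the median over all genes tested was 0.18. *Gzmb*, encoding granzyme B, stood at 81.2 CPM in DN, 78.1 in CD4 and 686 in CD8 T cells, and *Gzma* at 28.7, 31.7 and 655. *Gzmk* stood at 97.0, 117 and 242 CPM. *Prf1*, encoding perforin, was the member at least 2-fold higher than in CD4 T cells (109 against 49.3 CPM), and it stood at 199 CPM in CD8 T cells.

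Of 11 NK receptor genes tested, *Klrg1* and *Cd226* were lower than in both classes and none was higher, where 1.88% and 3.16% of all genes were. Compared with CD8 T cells alone, their median log2 ratio was -3.43, where the median over all genes tested was 0.18. *Klrd1* stood at 24.2 CPM in DN, 42.4 in CD4 and 347 in CD8 T cells. *Ifng*, the main cytokine of type 1 T cells, was called lower at 155, 377 and 523 CPM, and *Xcl1* at 23.6, 73.1 and 159. *Tnf* stood at 23.4, 75.5 and 45.1 CPM. *Il17a* stood at 4.14 and 15.9 CPM in DN and CD4 T cells, and its 34 UMIs in DN T cells came from 4 cells.

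Cytokine and inhibitory receptors followed on the lower side. Of 15 cytokine receptor genes, 5 were lower (*Il2rb*, *Il7r*, *Il18r1*, *Il18rap* and *Il12rb1*) and none was higher. Over all genes tested these shares were 1.88% and 3.16%. *Il18r1* stood at 22.6 CPM in DN, 108 in CD4 and 69.8 in CD8 T cells, and *Il2rb*, shared by the IL-2 and IL-15 receptors, at 82.3, 185 and 220.0. Of 9 inhibitory receptor genes, *Havcr2*, *Entpd1*, *Cd101* and *Cd96* were lower and none was higher. *Lag3* stood at 221, 147 and 146 CPM, above both classes but by less than 2-fold. *Ctla4* stood at 199.6 CPM in DN, 305 in CD4 and 134 in CD8 T cells.

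Among genes of T cell receptor signalling, 2 of 14 were lower. This count and those that follow stand beside 3.16% higher and 1.88% lower of all genes tested. *Cd2*, an adhesion and costimulatory molecule, stood at 106 CPM in DN, 422 in CD4 and 334 in CD8 T cells, and *Themis*, a signalling protein of the receptor, at 15.3, 62.2 and 90.6. The median of the list was -0.53 against both classes. None of the 10 costimulatory genes was higher than in both classes, and *Cd226* was lower. *Cd40lg*, the helper ligand, stood at 26.2 CPM in DN, 110.0 in CD4 and 1.34 in CD8 T cells. In the response lists, *Egr2* was higher among 15 immediate early genes (42.7, 11.8 and 6.07 CPM), and *Rsad2* and *Isg20* were lower among 13 interferon-stimulated genes. None of 12 replication genes passed 2-fold either way. Cycling cells had been left out of every class by the rule, so the replication count was partly set by the choice.

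In the death pathway list, *Bcl2a1b* and *Tnfsf10* were lower among 15 genes, where 1.88% of all genes tested were lower. *Bcl2*, the survival gene, stood at 136 CPM in DN, 258 in CD4 and 389.9 in CD8 T cells. *Fas*, the gene mutated in *lpr* mice, was detected at 26.3 CPM in old DN T cells, 19.4 in CD4 and 13.2 in CD8 T cells, and its ligand gene *Fasl* stood at 152, 119 and 159 CPM. *Fas* stood in the young library at 23.7, 24.2 and 11.1 CPM.

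**Figure D4:**
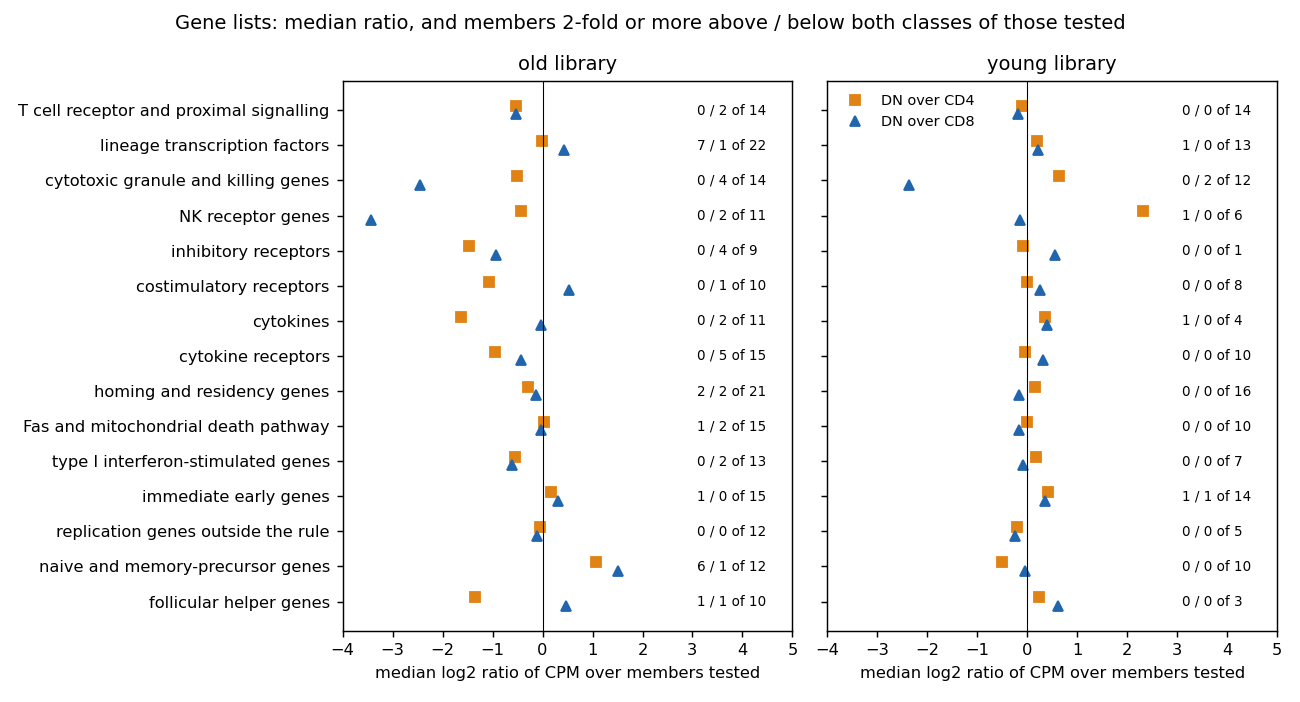
Median log2 ratio of CPM over the tested members of each of the 15 gene lists, DN over CD4 (squares) and over CD8 T cells (triangles), in the old (left) and young (right) library, with the number of members at least 2-fold above / below both classes of those tested. The precursor list stood at 1.07 and 1.51 in the old and at -0.51 and -0.04 in the young library.

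The genes with the largest deficit in old DN T cells, among those seen in at least 10% of both CD4 and CD8 T cells, were *Hip1*, *Cish*, *Cxcr6*, *S100a6*, *Themis*, *Atp2b4*, *Cd52*, *Ccr2*, *Coro2a*, *Klk8*, *AW112010*, *Ctla2a*, *AU020206*, *Ncf4* and *S100a4*. *Cd52*, a surface glycoprotein of most lymphocytes, was found in 29.5% of DN T cells at matched depth, against 92.4% of CD4, 91.6% of CD8 and 94.0% of NK cells. *S100a4* and *S100a6*, calcium-binding proteins of effector and memory T cells, were found in 12.5% and 24.9% of DN, against 61.4% and 68.4% of CD4 T cells. *Cish*, a feedback inhibitor of cytokine signalling, stood at 18.8 CPM in DN, 91.3 in CD4 and 79.2 in CD8 T cells.

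**Figure D5:**
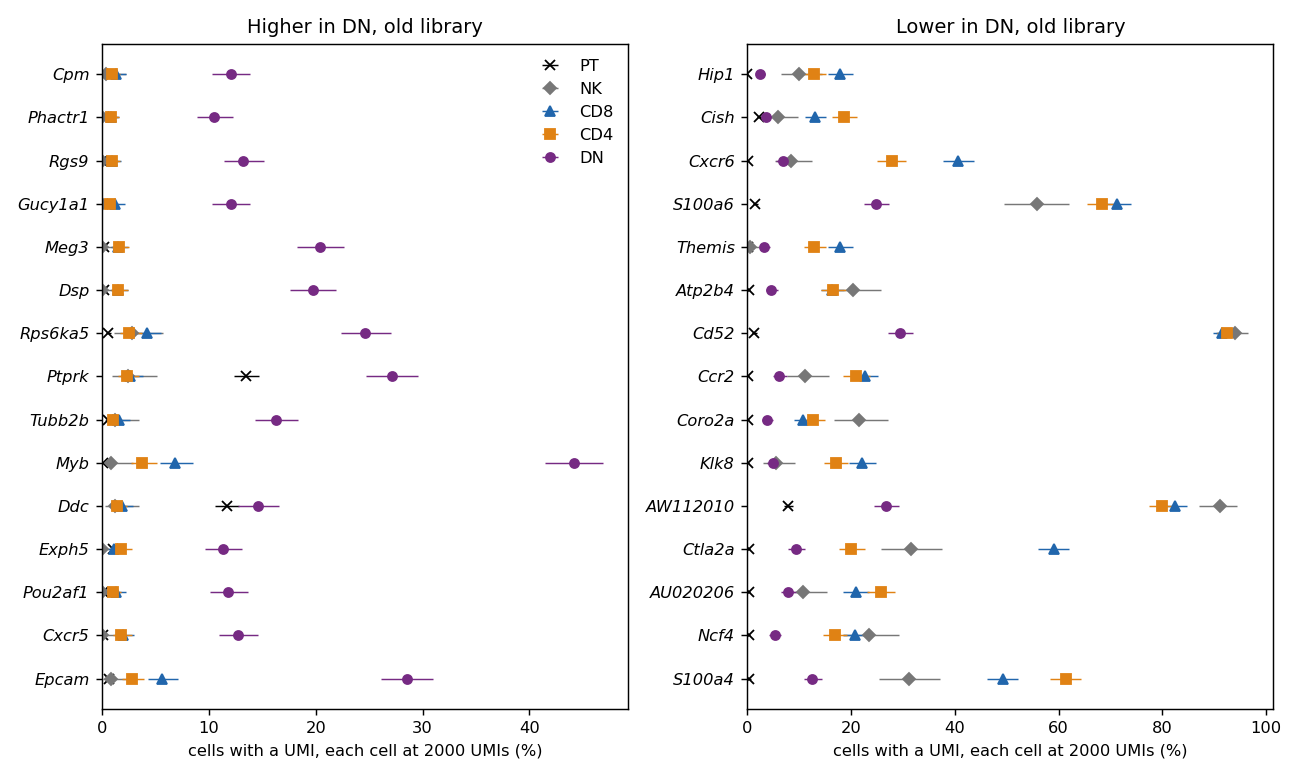
Share of cells of the old library with a UMI of the gene after each cell was thinned to 2000 UMIs (x axis, %), for the 15 genes with the largest excess in DN T cells (left) and the 15 with the largest deficit (right); lines are exact binomial 95% intervals. *Myb* reached 44.2% of DN T cells, and *Cd52* 29.5% against more than 90% of CD4, CD8 and NK cells.

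Cells with *Xist* only and cells with Y-linked UMIs only were also compared apart. Genes called higher in old DN T cells numbered 343 with *Xist* and 306 with Y-linked UMIs, and genes called lower 191 and 94. *Myb* was 4.15 and 2.67 (log2) above CD4 and CD8 T cells in cells with *Xist* and 3.59 and 2.61 in cells with Y-linked UMIs. *Cxcr6* was 2-fold or more below both classes in either set, at -2.50 and -3.23 with *Xist* and -1.86 and -2.13 with Y-linked UMIs. *Eomes* was 2.06 and 1.55 above with *Xist*, and 1.71 and 0.78 with Y-linked UMIs, so that in the latter it was less than 2-fold above CD8 T cells. The level of *Eomes* itself was 573 CPM in DN T cells with *Xist* and 307 CPM in those with Y-linked UMIs.

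Summed markers of other cell types were not all lower in old DN T cells than in CD4 and CD8 T cells. Those of NKT and MAIT cells, ILC2s, plasma cells, and macrophages, monocytes and neutrophils were below both classes. PT and erythroid markers were highest in DN T cells. Markers of γδ T cells, of NK cells and ILC1s and of B cells lay between the CD4 and CD8 levels. Of the 11 γδ T cell markers, 2 were at 0 in DN T cells, and their summed level was 399 CPM in DN, 521 in CD4 and 334 in CD8 T cells. The 11 NK and ILC1 markers, among them *Eomes* and with 3 at 0, summed to 677, 340 and 1148 CPM. The 9 NKT and MAIT markers summed to 193, 419 and 399 CPM, with 1 at 0, and the 10 ILC2 markers to 124, 364 and 182 CPM. B cell markers summed to 79.1, 81.2 and 57.0 CPM over 9 genes and plasma cell markers to 2482, 8893 and 2979 CPM over 6 genes. Macrophage, monocyte and neutrophil markers summed to 522, 758 and 664 CPM over 11 genes, PT markers to 3965, 2722 and 1937 CPM over 8 genes, and erythroid markers to 157, 55.3 and 35.7 CPM over 5 genes. Among γδ T cells of the old library (112 cells, picked by *Trdc*), *Eomes* stood at 215, *Myb* at 166 and *Trac* at 242 CPM, and whether some of these were DN T cells with stray *Trdc* was not tested.

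Old DN T cells varied in the *Eomes* and *Myb* UMIs they held. At matched depth 30.2% held both *Eomes* and *Myb*, 68.0% held either and 32.0% (29.5% to 34.6%) held neither. In CD4 T cells both were found together in 1.28% and in CD8 T cells in 4.26%. The 724 DN T cells with an *Eomes* UMI were set beside the 616 without one. All 15 of the genes with the largest excess over CD4 and CD8 T cells were higher in the cells with *Eomes*. Their median log2 ratio was 1.06 (0.63 to 1.90). All 15 with the largest deficit were lower, by a median of -1.85 (-4.99 to -0.54). Both sets were picked from these same DN T cells, and *Eomes* is itself high in them. The directions were therefore partly set by the choice and are given only as description. *Myb* was found in 55.9% of cells with and 30.4% of cells without *Eomes*, and *Bach2* in 20.3% and 8.77%. *Lag3* was found in 43.4% and 24.7%.

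The cells without *Eomes* stood closer to CD4 and CD8 T cells in the genes that were low in DN T cells as a whole. *Cd52* was found in 46.4% of them and in 15.1% of the cells with *Eomes*, *S100a4* in 22.7% and 3.87%, and *Cxcr6* in 12.8% and 1.66%. *Il7r* was found in 18.2% and 2.35%, *Cd40lg* in 8.60% and 0.691%, *Tnfrsf4* in 8.12% and 0.967%, and *Gata3* in 12.2% and 3.18%. *Gzmk* differed little, at 15.3% (12.5% to 18.3%) without and 19.5% (16.7% to 22.6%) with *Eomes*, and these intervals overlap. Because *Eomes* was scored at 2000 UMIs per cell, the cells without a UMI include cells that express it, and how many of them are CD4 T cells that lost their coreceptor UMI was not tested.

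Many variable segments of the receptor were seen in old DN T cells. A *Trbv* segment was read in 195 of 1340 old DN T cells (14.6%), and 19 of the 35 *Trbv* genes of the annotation were seen. *Trbv12-2* led with 22.1% of these cells (16.4% to 28.5%), and it also led in CD8 T cells (25.5%) and, level with *Trbv2*, in CD4 T cells (23.9%). A *Trav* segment was read in 245 cells, with 54 of 128 genes seen and *Trav3-3* leading at 11.8% (8.07% to 16.6%), against 14.5% in CD8 T cells. The 3′ libraries read few segments, and in the young DN T cells a *Trbv* was read in 12 and a *Trav* in 16 cells.

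Young DN T cells had their own leading genes. Those with the largest excess among genes in at least 10% of the cells were *Lyst*, *Fgl2*, *Podnl1*, *Cebpb*, *Neurl3*, *Ikzf2*, *Xcl1*, *Ero1l*, *Rgs2*, *Mxd1*, *Ccr2*, *AU020206*, *Ramp1*, *Sla* and *Nr3c1*. *Ikzf2*, which encodes Helios, stood at 161 CPM (136 to 188) in DN, 60.0 in CD4 and 70.6 in CD8 T cells, and 35.6% of its DN UMIs lay in 5 cells. Young coreceptor-positive cells with 2 coreceptor UMIs had 187 CPM of it (133 to 257), those with 1 had 51.1 and those with 3 or more 54.9. By depth, DN T cells stood lower only from 3000 to under 4000 UMIs, at 95.8 against 116 CPM in coreceptor-positive cells. *Fgl2* stood at 198, 31.9 and 66.3 CPM and *Xcl1*, a chemokine of cytotoxic lymphocytes, at 291, 48.5 and 129, although 45.9% of its 270 UMIs lay in 5 cells. *Zbtb16*, which encodes PLZF, was at 31.2 CPM (20.9 to 44.9) in DN, 2.55 in CD4 and 3.40 in CD8 T cells and was found in 18 cells. At matched depth 23.0% (16.2% to 31.0%) of young DN T cells held *Ikzf2* or *Zbtb16*, against 7.69% of CD4, 9.21% of CD8 and 7.61% of old DN T cells.

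Receptors shared with NK cells also stood above CD4 but not CD8 T cells in the young library. Over the 6 tested, the median log2 ratio was 2.31 against CD4 and -0.15 against CD8 T cells. Medians over all genes tested were 0.02 and 0.05. *Klrd1* stood at 102 CPM in DN, 6.38 in CD4, 204 in CD8 and 527 in NK cells. *Klrk1* stood at 80.8, 7.65, 119 and 444 CPM, and *Fcer1g*, the member called higher than both T cell classes, at 115, 43.4, 15.3 and 883 CPM, with 67.3% of its UMIs in 5 cells. Against CD4 T cells with at least 2 coreceptor UMIs the log2 ratio of *Fcer1g* was -0.016, which ends that call. The cytotoxic genes *Gzmk* (8.62, 17.9 and 100.3 CPM in DN, CD4 and CD8 T cells) and *Ccl3* (20.5, 43.4 and 187 CPM) were the members called lower, and neither call was kept with every cell at 2000 UMIs. Only 8 UMIs of *Gzmk* were seen in young DN T cells, and the interval of its ratio to CD4 T cells (-2.51 to 0.30) includes 0. Among the immediate early genes *Atf3* was called higher and *Hspa1b* lower, the latter not when thinned. These counts stand beside 0.38% higher and 0.166% lower of all genes tested in the young library. No member of the precursor list passed 2-fold either way among 10 tested.

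Among genes seen in at least 10% of both young CD4 and young CD8 T cells, those with the largest deficit in young DN T cells stayed short of 2-fold against both classes. *Nr4a2*, an immediate early nuclear receptor, led them at 61.4 CPM in DN, 120 in CD4 and 213 in CD8 T cells. It was followed by *Cmah*, *Nup50*, *Slc4a7*, *4921524J17Rik*, *Xrn1*, *S1pr4*, *Dda1*, *Snapc5*, *Rilpl2*, *Zrsr2*, *AC160336.1*, *Cntrl*, *Rasa3* and *Ehd3*, with the smaller of the 2 differences between -0.57 and -0.78 on the log2 scale. Of the other markers, those of macrophages, monocytes and neutrophils summed to 406 CPM in young DN, 290 in CD4 and 18.7 in CD8 T cells, with 97.6% of the 165 UMIs of *S100a9* in 1 cell. The γδ T cell markers summed to 478, 309 and 305 CPM, the NKT and MAIT markers to 455, 302 and 298 CPM and the ILC2 markers to 491, 292 and 230 CPM.

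Between the ages, 8229 genes could be compared within DN T cells, of which 753 (9.15%) were at least 2-fold higher and 244 (2.97%) at least 2-fold lower in the old library. Age, library and the apparent mix of male and female cells cannot be told apart in this design. Nor can the part of the gate made up of CD4 or CD8 T cells without a captured coreceptor UMI. The median over all genes was 0.06 (log2). Among genes in at least 10% of cells at matched depth, the largest excess in old DN T cells belonged to *Dsp* (6.72), *Meg3* (6.19), *Cpm* (5.80), *Sdc1* (5.70), *Crtam* (5.58), *Serp2* (5.31), *Epcam* (5.16), *Lag3* (4.87), *Myb* (4.71) and *Eomes* (4.63). For *Dsp*, *Cpm*, *Sdc1* and *Serp2* the young level rested on 1 UMI each, so their ratios have wide intervals (*Dsp* 4.24 to 12.03). *Igha*, *Jchain*, *Klk1* and *Umod*, genes of plasma cells and of tubules, had ratios of 8.32, 8.24, 6.74 and 6.09, and 5 cells held 97.2%, 96.0%, 85.8% and 97.0% of their old DN UMIs.

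*Eomes* was 4.63 (3.93 to 5.44) higher in old than in young DN T cells, and it was 4.87 higher in old CD4 and 2.66 higher in old CD8 T cells, with 3 UMIs behind the young CD4 level. *Myb* was 4.71 (3.91 to 5.67) higher in DN, against 0.92 in CD4 and 2.44 in CD8 T cells. *Tcf7* stood 1.05 (0.81 to 1.30) higher in old DN but -0.73 in CD4 and -0.47 in CD8 T cells. *Klf2* showed the same signs, with 1.15 in DN, -0.46 in CD4 and -0.44 in CD8 T cells. Both genes stood higher in the old library in DN T cells and lower in the coreceptor-positive classes, and the difference between the classes could not be tested with 1 library per age. Of 12 precursor genes, 7 were at least 2-fold higher and *Il7r* and *Satb1* were lower in old DN T cells. The given marker *Tcf7* was among the 7. Between the ages 9.15% of all genes tested were higher and 2.97% lower. *Lef1* (-0.57) and *Ccr7* (-0.47) stood lower in old DN T cells by less than 2-fold.

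Among cells with Y-linked UMIs only and among cells with *Xist* only, *Eomes* and *Myb* had the same direction. *Eomes* was 3.79 higher in old DN T cells with Y-linked UMIs and 6.44 higher in those with *Xist*, and *Myb* 4.24 and 4.51. Only 23 young DN T cells had *Xist*, with 1 *Eomes* and 3 *Myb* UMIs behind the second value of each pair.

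The largest deficits in old DN T cells belonged to *Dapl1* (-4.50), *Satb1* (-3.94), *Ly6c1* (-3.74), *Xcl1* (-3.62), *Tesc* (-3.17), *Cd226* (-3.15), *Ramp1* (-3.12), *Rflnb* (-2.86), *Fgl2* (-2.80) and *Cd7* (-2.80). *Satb1*, a chromatin organizer of naive T cells, stood at 298 CPM (264 to 336) in young and 19.5 (16.6 to 22.7) in old DN T cells, and it was also lower in old CD4 T cells (-3.17). *Dapl1* was lower in old CD4 (-2.74) and CD8 T cells (-2.45) as well. *Cxcr6* (-2.62) and *Ccr2* (-1.87) were lower in old DN T cells, whereas their ratios were 0.43 and 1.25 in CD4 and 0.60 and 0.97 in CD8 T cells.

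Among the lists, lineage factors counted 7 higher and 4 lower of 22 between the ages. The 7 include the given markers *Eomes*, *Myb* and *Tcf7*. Cytotoxic genes counted 5 higher and 2 lower of 13. Over all genes tested, 9.15% were higher and 2.97% lower. *Gzmk* was 3.49 and *Prf1* 2.41 higher in old DN T cells, while *Ctsw* was -1.64. Of 7 NK receptor genes, 4 were lower (*Klrd1*, *Klrc2*, *Klrk1* and *Cd226*) and none was higher. *Ifng* was at 155 CPM in old and 151 CPM in young DN T cells (log2 ratio 0.04, -0.22 to 0.30), while it was 1.68 higher in old CD4 and 1.16 higher in old CD8 T cells. *Lag3* was 4.87 higher in DN, 2.76 in CD4 and 2.61 in CD8 T cells.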

How the data were processed

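UMI counts per gene and cell from 2 10x Genomics libraries (old and young, 1 per age) were analysed. The authors pooled kidneys, enriched leukocytes and innate lymphoid cells and sorted live cells. They deposited whole-number UMI counts of 31053 genes from Cell Ranger (version 3.1.0 in the file headers, mm10), with no normalization.

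From these counts, cells were kept at 200 genes, 2000 UMIs and 20% mitochondrial UMIs or better and classed by the UMI rule given with the results. UMIs were summed per class to CPM. Log2 ratios of 2 sums were given with an exact binomial 95% interval, genes were tested from 100 UMIs, and a 2-fold difference from both CD4 and CD8 T cells counted as called. A sum of 0 was set to a floor of 3 counts per class. For matched depth each cell was thinned to 2000 UMIs (seed 11). Intervals cover counting error, and UMIs of 1 cell are not independent. Doublets were called with Scrublet in Scanpy 1.11.5 (363 young and 298 old, of which 11 and 66 were DN) and kept, with a repeat without them. The calls were also run on simulated Poisson counts of the class sums, which lack the pile-up of UMIs in single cells. Gene positions came from GENCODE for mm10. Python 3.11.15, NumPy 2.4.6, SciPy 1.17.1, pandas 2.3.3 and Matplotlib 3.10.9 were used.

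The class, the 15 gene lists and the 9 marker lists were chosen with earlier results of these data known. Named genes were the given markers, the 15 highest and lowest by the weakest of the 4 ratios among those that kept their direction when thinned, 2 to 4 members per list with the largest mean ratio plus a set of T cell genes fixed by name, and the 10 highest and lowest between ages. A second rule, added after the data were seen, took the largest differences within each library and between ages among genes found in at least 10% of thinned cells of the higher class. For genes lower than in CD4 and CD8 T cells, both of these classes had to reach 10%. Some genes are not reported here. Alternatives were other depth limits, normalizations, minimum counts, comparator definitions, doublets left out, and cells with Y-linked UMIs or *Xist* apart.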

Additional observations from a re-analysis of the deposited data

Results flagged for a closer look

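DN T cells differed from both CD4 and CD8 T cells in opposite directions in the 2 libraries for 71 of 4205 genes whose 4 intervals all excluded 0, of which 30 were higher in old and lower in young DN T cells and 41 the reverse. The difference between the libraries was not tested, because there was 1 library per age. At 1.5-fold or more in all 4 ratios, 17 genes remained, of which 16 are given as log2 ratios of DN over CD4 T cells, old and then young.

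The genes lower in old and higher in young DN T cells included receptors, regulators and chemokines. *Cxcr6* was at -2.07 and 0.98, *Ccr2* at -1.88 and 1.24, *Xcl1* at -1.63 and 2.59, and *Fgl2* at -0.73 and 2.64. *Rgs1*, a regulator of G protein signalling, was at -1.06 and 1.28, *Rora* at -1.13 and 0.74, *Fosl2* at -1.64 and 1.61 and *F2r* at -0.96 and 1.42. *Fam129a* was at -1.05 and 0.64 and *AU020206* at -1.91 and 0.90. *S100a9*, a neutrophil gene, was at -2.28 and 5.12, with 97.6% of its young UMIs in 1 cell.

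In the other direction, *Itga6* was at 1.30 and -1.01, *Mrps6* at 0.996 and -1.28, *Rbpms2* at 0.93 and -0.91, *Mapt* at 0.61 and -1.02 and *Hao2* at 0.60 and -0.82. The PT markers *Miox*, *Slc34a1* and *Ass1* also had this direction, below 1.5-fold in some ratios, and the other PT markers did not pass the interval rule. PT markers summed to 3965, 2722 and 1937 CPM in old DN, CD4 and CD8 T cells. In the young library they summed to 4654, 6165 and 5260 CPM. The part of free tubule RNA in the genes of this direction was not tested.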

How the results depend on the processing

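No paired analysis was possible because there was 1 library per age and the labels carry no replicate numbers. For every change below the cause was not tested. The DN share of old αβ T cells (38.4%) was 25.8% from 5000 UMIs, 29.3% with Y-linked UMIs only, 48.1% with *Xist* only and 43.8% without *Tcrg* UMIs, and the young share was 39.7% with *Xist* only. The share of DN T cells with *Eomes* or *Myb* was 61.1% (old) and 1.61% (young) from 5000 UMIs, 59.4% (old) with Y-linked UMIs, 76.1% and 0% with *Xist*, and 71.0% (old) below 12000 UMIs, a limit chosen after seeing the data.

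Genes called higher in both libraries (1) numbered 0 from 5000 UMIs and with *Xist*, 2 when thinned, by mean CPM per cell or from 50 UMIs, and 25 with no minimum. Genes called lower in both (1) numbered 4 from 5000 UMIs, 0 with *Xist* or without *Tcrg* UMIs, 2 against cells with 2 coreceptor UMIs or cells drawn to DN depth, 3 from 50 UMIs and 9 with no minimum. In the young library the higher count (16) was 47 thinned, 31 with comparators drawn to DN depth, 44 from 50, 9 from 200 and 363 with no minimum of UMIs per gene. The young lower count (7) was 12 from 5000 UMIs per cell, 4 without doublets, 11 with Y-linked UMIs, 25 with *Xist*, 63 thinned, 12 with drawn comparators, 25 from 50, 2 from 200 and 280 with no minimum. In the old library 940 were higher and 503 lower with no minimum, and 94 were lower with Y-linked UMIs. Between ages the higher count (753) was 359 with Y-linked UMIs, 493 from 200 UMIs and 1388 with no minimum, and the lower count (244) was 149 from 5000 UMIs, 87 with Y-linked UMIs, 566 thinned, 399 from 50, 130 from 200 and 1832 with no minimum.

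Some single ratios turned direction. From 5000 UMIs, *Eomes* in young DN over CD4 was -0.14, *Hbb-bs* and *Hba-a1* in old DN over CD8 were -3.92 and -4.64, *Il17a* in young DN over CD8 was 1.46, *Gzma* was -2.95 in young DN over CD4 and 1.69 between ages, and *Hbb-bt* in old DN was -0.92 over CD4 and -1.57 over CD8. Without doublets, *Hs3st1* in old DN over CD8 was 1.39, *Cd79a* and *Ms4a1* between ages were 1.02 and 0.82, *Cd79b* in young DN over CD4 was -0.64, *S100a9* was -1.22 in young DN over CD4 and 3.78 between ages, and *S100a8* in young DN was -0.22 over CD4 and -0.80 over CD8. Thinned, *Ccl3* in young DN over CD4 was 0.30, *Klra7* in old DN over CD4 was -0.40, and *Klrg1* and *S100a9* between ages were 0.15 and 1.44. Against cells with 2 coreceptor UMIs or more, *Il17a* in old DN over CD4 was 0.25 and *Fcer1g* in young DN over CD4 was -0.016. Of 891 ratios recomputed from 5000 UMIs, 640 stayed within their interval, as did 804 of 899 without doublets, 589 of 868 thinned and 592 of 710 against cells with 2 coreceptor UMIs or more.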

Other observations

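Some other genes stood high in old DN T cells. *Sdc1*, the surface proteoglycan syndecan-1 best known on plasma cells, was at 55.9 CPM in DN, 11.8 in CD4 and 12.02 in CD8 T cells. *Crtam*, an adhesion receptor of activated cytotoxic T cells, was at 155, 26.6 and 67.8 CPM. *Nr4a2* was at 508, 249.6 and 452 CPM in the old library, where it stood above CD4 but close to CD8 T cells. Between the ages *Nr4a2* was 3.05 (log2) higher in old DN T cells.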
